A study of Homo sapiens with 8 samples.

Results

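Pre-mRNA splicing depends on proteins that recognise exons and introns and on the spliceosome that cuts and joins them. The genes described here encode 91 of these proteins among the 14668 genes of the count table. They were chosen by symbol, with earlier results of these data known. The symbols taken were those of SRSF, TRA2, HNRNP, PTBP, SNRP, LSM2 to LSM8, SF3A, SF3B, U2AF and PRPF genes, and of RBM5, RBM10, RBM17, RBM22, RBM25 and RBM39. By role they fell into 29 hnRNP and PTB genes, 13 SR and TRA2 genes, 12 SF3 and U2AF genes, 12 PRPF genes, 8 genes of the Sm ring, 7 of the LSM2-8 ring, 6 RBM genes and 4 genes of proteins specific to the U1 or U2 snRNP.

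The cells were T3M4, an established human pancreatic cancer line. Cells with a non-targeting guide RNA (sgControl) were compared with cells whose guide RNA targets METTL13 (sgMETTL13), a methyltransferase of the translation elongation factor eEF1A. All cells went without serum for 18 h and then received 10% FBS for 2 h, so no group lacks this stimulation. Poly(A) RNA-seq measured mRNA and ribosome profiling measured ribosome-protected fragments (footprints), with 2 libraries in each of 4 groups; whether the cells are 1 clone, and whether replicates came from separate cultures, is not in the labels, and p-values cover only the spread between these libraries.

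As background, SR proteins carry an RNA-binding domain and a tail rich in arginine and serine, and they usually favour the inclusion of the exons they bind. hnRNP proteins coat nascent transcripts and often act in the opposite sense. The U1 snRNP pairs with the start of the intron, U2AF and the U2 snRNP with its SF3A and SF3B subunits recognise its end and branch point, and the PRPF proteins act mostly in the U4/U6.U5 tri-snRNP and the activated spliceosome. Seven-membered rings of Sm or LSM proteins hold the small nuclear RNAs. Many SR and hnRNP genes are known to regulate their own mRNA through alternative exons, and some of those forms are not translated into full protein.

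Footprint libraries held 6063885 to 9837253 counts and RNA libraries 20860953 to 48353722. The 91 genes took 3.33 to 3.86% of footprint counts and 1.92 to 2.12% of RNA counts. METTL13 footprints read 65.2 and 57.8 CPM (counts scaled to library size with TMM factors) under sgControl against 20.1 and 26.2 CPM under sgMETTL13, and its mRNA 89.7 and 71.4 CPM against 25.2 and 35.1 CPM. All 4 sgMETTL13 libraries were lower. METTL13 footprints passed the test used below, and METTL13 mRNA did not. All 6 epithelial markers listed (EPCAM, CDH1, KRT7, KRT8, KRT18, KRT19) were present, at a summed 1640 to 1740 CPM in footprints and 2860 to 4180 CPM in RNA. The 4 fibroblast markers in the table summed to 21.5 to 25.2 and 23.7 to 32.9 CPM in footprints and RNA. COL1A1 was the highest of them in each library, and LUM RNA, at 4.82 CPM in sgMETTL13 replicate 1, read 0.848 to 1.53 CPM in the other libraries. PTPRC and LYZ, the leukocyte markers in the table, summed to at most 0.484 CPM. The part of these levels in the changes below was not tested.

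Footprints of 6 genes passed the test with all libraries and again with any 1 of the 4 footprint libraries left out. Their transcription starts are shown because they are the genes whose values the rest of the account turns on. Each line gives 75 bases of the RefSeq table for GRCh38.p14, 60 before the first listed start in lower case and the 15 bases from that start in capitals. SF3B6 lies at chr2:24076312-24076386 (minus strand), PTBP3 at chr9:112333012-112333086 (minus, a start inside the gene, which RefSeq places from 112217715 to 112379882), HNRNPK at chr9:83980601-83980675 (minus), SRSF6 at chr20:43457836-43457910 (plus), U2AF2 at chr19:55654975-55655049 (plus) and HNRNPA3 at chr2:177212734-177212808 (plus).
SF3B6: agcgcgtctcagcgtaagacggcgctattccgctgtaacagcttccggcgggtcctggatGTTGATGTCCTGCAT
PTBP3: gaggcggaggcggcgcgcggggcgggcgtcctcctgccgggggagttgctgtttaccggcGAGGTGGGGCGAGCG
HNRNPK: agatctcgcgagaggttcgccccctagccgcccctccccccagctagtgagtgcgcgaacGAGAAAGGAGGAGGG
SRSF6: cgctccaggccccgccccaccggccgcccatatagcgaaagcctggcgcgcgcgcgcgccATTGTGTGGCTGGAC
U2AF2: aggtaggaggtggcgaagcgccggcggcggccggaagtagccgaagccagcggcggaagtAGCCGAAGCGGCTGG
HNRNPA3: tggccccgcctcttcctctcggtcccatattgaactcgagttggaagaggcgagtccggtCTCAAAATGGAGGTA

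Messages of the translation machinery often begin with a C followed by a run of pyrimidines, the terminal oligopyrimidine feature that ties their translation to growth signals. None of the 6 starts above had a C followed by pyrimidines to a run of at least 5. Of the 79 splicing genes with a window in the table, 6 did (7.59%), against 5.21% of 11909 genes. They are shown for contrast, with 15 bases on each side of the start and the pyrimidine run in capitals. HNRNPA0 lies at chr5:137754349-137754378 (minus), LSM2 at chr6:31806952-31806981 (minus), LSM8 at chr7:118184149-118184178 (plus), SF3A2 at chr19:2236809-2236838 (plus), SNRPA at chr19:40751188-40751217 (plus) and SRSF9 at chr12:120469734-120469763 (minus).
HNRNPA0: cgcgcgttcagcggcCTCTTTgtgtggtgc
LSM2: tttcccggcttcctcCTCCCCTCTactcta
LSM8: gggttctggcgcgccCTTTCagttctgctt
SF3A2: tttgccccggaagtgCTTTCTTTgcccgcc
SNRPA: aatctctcgagagttCTCTCCgcacgcggg
SRSF9: tttgcctccgccgacCCCTTCgcttccgct

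LSM2 was not tested for lack of counts, and footprints of the other 5 did not pass, with log2 fold changes of 0.02 for HNRNPA0, 0.26 for LSM8, -0.01 for SF3A2, 0.17 for SNRPA and -0.25 for SRSF9. Other motifs were searched on both strands of the 300-base windows (250 before the start, 50 after). GGGCGG, the GC box, was in 62.0% of the splicing genes' windows and 66.8% of all windows. CCAAT was in 45.6% and 37.0%, TATAAA in 7.59% and 6.8%, the ETS-type CCGGAAG in 30.4% and 17.5%, and CTCGCGAG in 6.33% and 1.86%. Of 18 genes with changed footprints and a window, 15 held GGGCGG, 7 CCGGAAG, 7 CCAAT, 3 TATAAA and 2 CTCGCGAG, the last being HNRNPK and SRSF4. The HNRNPK window above shows CTCGCGAG near its left end. Median GC content was 61.7% over the 79 windows, 62.7% for the 7 genes that rose, 66.3% for the 11 that fell and 64.7% over all genes; these are descriptions of the letters and not of factor binding.

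Between the guides, splicing genes moved in footprints in both directions and mostly by little. Of 87 genes tested, 20 passed edgeR's quasi-likelihood test at an adjusted p below 0.05, taken over the whole table, which is 23.0%, and the share of all 10714 tested genes that passed was 21.0%. Among the 20, 9 rose (10.3% of the 87, with 8.94% of all genes rising) and 11 fell (12.6%, with 12.0% of all genes falling). The members' count was thus close to the background. Log2 fold changes of sgMETTL13 over sgControl ran from -0.90 to 1.08 with a median of -0.05 (0.01 over all genes), and 78 of 87 lay within 0.5 of 0. The 2 sgMETTL13 libraries lay wholly above or below the 2 sgControl libraries in 51 of 87 genes (58.6%), where all genes gave 64.1%. In such bulk lysates fewer cells of a kind and less RNA per cell cannot be told apart.

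**Figure D1:**
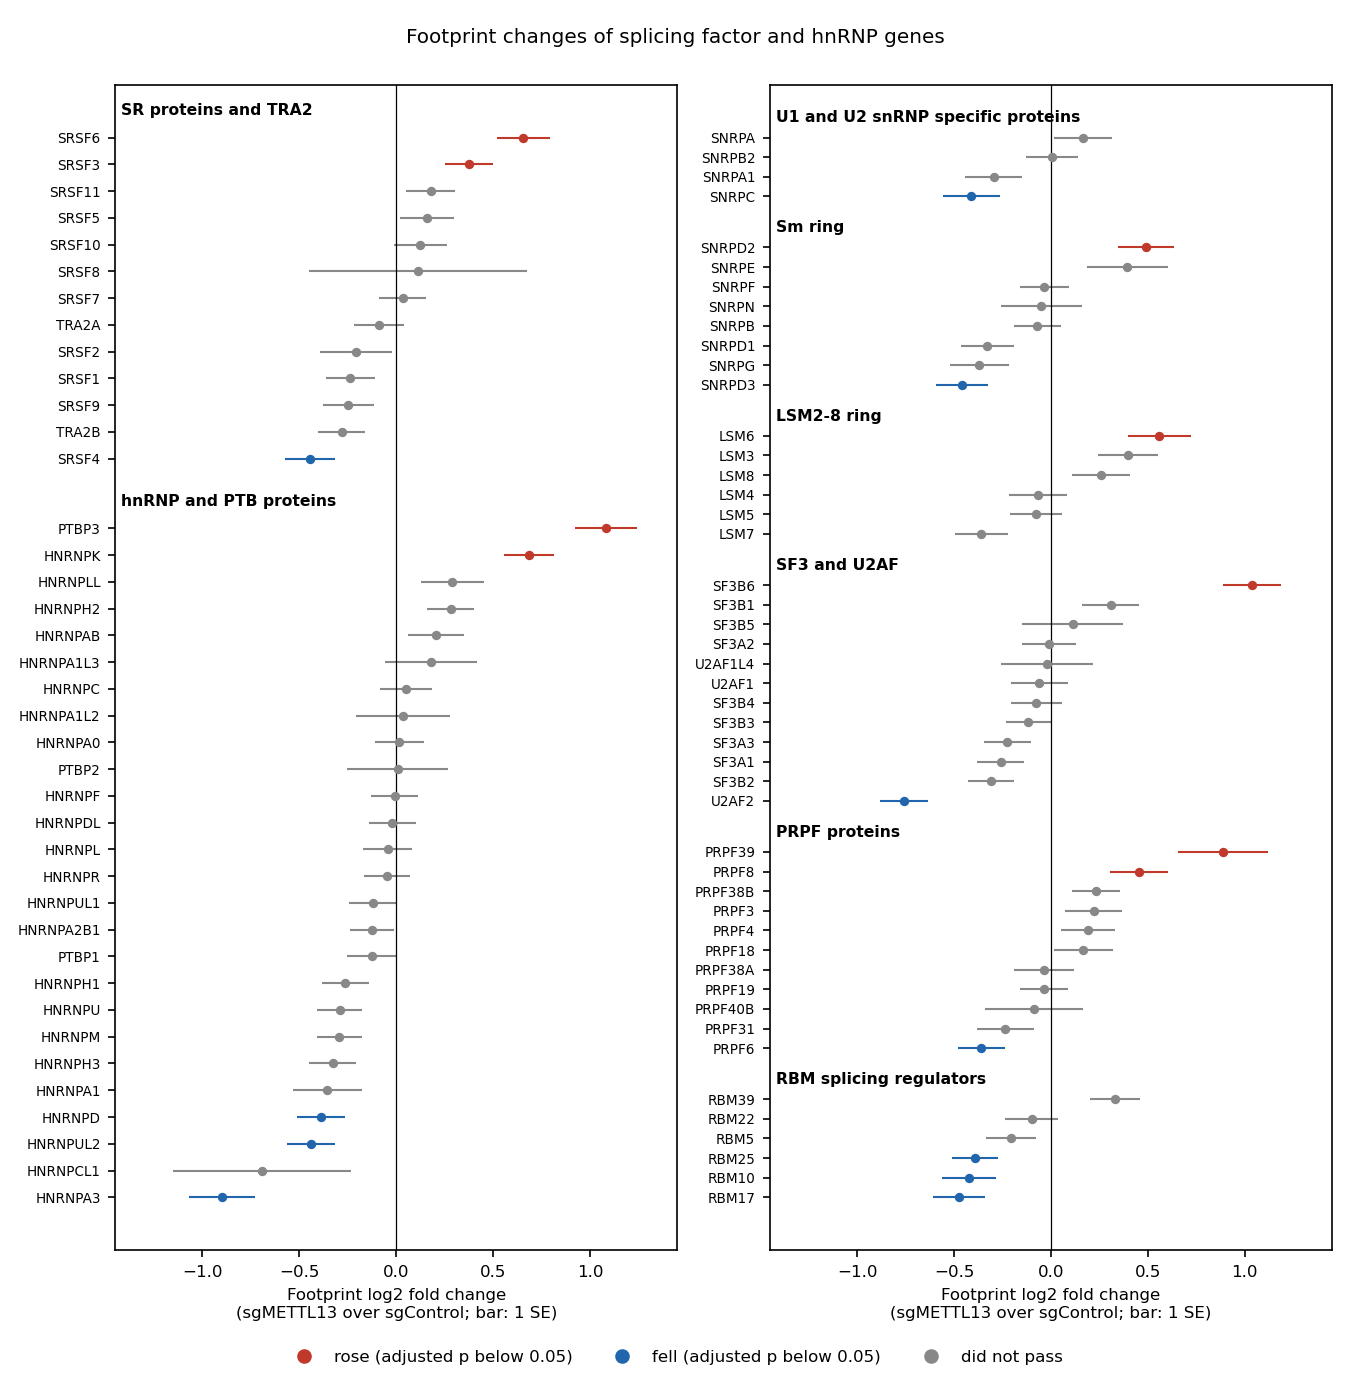
Footprint log2 fold change (sgMETTL13 over sgControl, x axis) of splicing genes tested, grouped by role, with 1 standard error as a bar; red genes rose and blue genes fell at an adjusted p below 0.05. Most genes lie within 0.5 of 0, with SF3B6 and PTBP3 above 1 and HNRNPA3 at -0.90.

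Among SR proteins, SRSF6 and SRSF3 rose and SRSF4 fell, out of 13 tested, and the median of the class was 0.03. SRSF6, an SR protein with a pair of RNA recognition motifs, read 171.9 and 128.4 CPM under sgControl against 236.2 and 238.1 CPM under sgMETTL13. Both sgMETTL13 libraries lay above both controls, a log2 change of 0.66 (SE 0.137, n = 2 per arm, edgeR adjusted p = 0.00114). SRSF3, the smallest of the classical SR proteins and an adaptor for mRNA export, read 269.2 and 268.3 CPM and then 333.7 and 363.5 CPM. The groups did not overlap and the log2 fold change was 0.38 (SE 0.122, edgeR adjusted p = 0.0279). With 1 footprint library left out, SRSF3 ran from 0.31 to 0.43 and lost the call in some of these fits. SRSF4, a close relative of SRSF6 in domain layout, read 317.0 and 397.9 CPM under sgControl against 273.7 and 250.6 CPM under sgMETTL13. Its log2 fold change was -0.45 (SE 0.130, edgeR adjusted p = 0.0141), and without sgControl replicate 2 it was -0.28 and did not pass. Whether SRSF4 and SRSF6 differ from each other was not tested.

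The other 10 SR and TRA2 genes did not pass, with log2 fold changes from -0.28 for TRA2B to 0.18 for SRSF11. SRSF1, the founding SR protein, stood at -0.24 (SE 0.124) and SRSF2 at -0.21 (SE 0.186). TRA2A and TRA2B, relatives of the fly sex-determination splicing factor, stood at -0.09 and -0.28. SRSF5, SRSF7, SRSF8 and SRSF10 stood between 0.03 and 0.16.

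Among hnRNP and PTB proteins 2 rose and 3 fell of 26 tested, with a class median of -0.05. PTBP3, a paralog of the polypyrimidine tract binding protein PTBP1 and also called ROD1, had the highest fold change of all 87. Its footprints read 29.0 and 23.3 CPM under sgControl against 52.7 and 58.7 CPM under sgMETTL13, without overlap. That is a log2 change of 1.08 (SE 0.162, n = 2 per arm, edgeR adjusted p = 3.20e-05), or 2.12-fold. PTBP1 and PTBP2, its paralogs, did not pass, at -0.13 (SE 0.128) and 0.01 (SE 0.261). HNRNPK, which binds C-rich RNA through KH domains, read 292.8 and 233.9 CPM under sgControl against 429.7 and 417.5 CPM under sgMETTL13. The groups lay apart and the log2 fold change was 0.68 (SE 0.128, edgeR adjusted p = 4.02e-04).

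HNRNPA3, of the hnRNP A/B family, read 204.2 and 299.7 CPM under sgControl against 164.7 and 104.6 CPM under sgMETTL13. All sgMETTL13 values were lower, a log2 change of -0.90 (SE 0.169, edgeR adjusted p = 4.05e-04), although both groups were spread widely. DESeq2 gave the same size but an adjusted p of 0.133, and RefSeq lists 17 numbered pseudogenes of HNRNPA3 that may share short reads. HNRNPUL2, of the family of the scaffold protein HNRNPU, read 1050 and 1233 CPM and then 908.5 and 773.9 CPM (log2 change -0.44, SE 0.123, edgeR adjusted p = 0.0111). With 1 footprint library left out, HNRNPUL2 ran from -0.57 to -0.33 and lost the call in some of these fits. HNRNPD, also called AUF1, binds AU-rich elements; it read 1574 and 1868 CPM and then 1451 and 1177 CPM. Its change of -0.39 in log2 (SE 0.125, edgeR adjusted p = 0.0259) became -0.24 and did not pass without sgMETTL13 replicate 2.

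Other hnRNP genes lay just outside the threshold on the lower side. HNRNPH3 stood at -0.33 (edgeR adjusted p = 0.0510), HNRNPU at -0.29 (edgeR adjusted p = 0.0682) and HNRNPM at -0.29 (edgeR adjusted p = 0.0704). The most abundant footprints of the class belonged to HNRNPA2B1, at 6065 and 6225 CPM under sgControl against 5761 and 5497 CPM under sgMETTL13, with a log2 change of -0.13 (SE 0.113). HNRNPL, HNRNPR, HNRNPF, HNRNPDL and HNRNPA0 lay within 0.05 of 0, and HNRNPC stood at 0.05. On the higher side HNRNPLL, a T-cell splicing regulator, stood at 0.29, HNRNPH2 at 0.28 and HNRNPAB at 0.21, and on the lower side HNRNPH1 at -0.26 and HNRNPUL1 at -0.12; none of these passed.

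Of the 4 proteins specific to the U1 or U2 snRNP, SNRPC, the zinc finger protein of the U1 snRNP, fell and the other 3 did not pass. SNRPC read 224.2 and 328.3 CPM under sgControl against 226.8 and 188.2 CPM under sgMETTL13. It was the one gene of the 20 whose groups overlapped. Its log2 fold change was -0.41 (SE 0.147, edgeR adjusted p = 0.0449), and it was -0.12 without sgControl replicate 2 and -0.66 without sgControl replicate 1. Neither DESeq2 nor limma voom called it. SNRPA1, the U2 A′ protein, read 214.6 and 306.2 CPM and then 237.3 and 186.2 CPM (-0.30, SE 0.147, edgeR adjusted p = 0.153). It was -0.53 and passed without sgControl replicate 1, and was -0.02 without sgControl replicate 2 and -0.13 without sgMETTL13 replicate 2. SNRPA, the U1 A protein, read 54.3 and 68.1 CPM and then 67.5 and 69.3 CPM (0.17, SE 0.148), and the groups of SNRPA and SNRPA1 overlapped. SNRPB2, the U2 B″ protein, stood at 0.01.

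Within the Sm ring SNRPD2 rose and SNRPD3 fell, though in the assembled ring each protein occurs in 1 copy. SNRPD2 read 155.1 and 108.9 CPM under sgControl against 177.7 and 194.0 CPM under sgMETTL13 (log2 change 0.49, SE 0.145, edgeR adjusted p = 0.0160). SNRPD3 read 538.0 and 738.5 CPM and then 482.9 and 444.6 CPM (log2 change -0.46, SE 0.133, edgeR adjusted p = 0.0137). Neither gene's groups overlapped, but the 2 controls of each lay far apart. Without sgControl replicate 2, SNRPD2 stood at 0.26 and SNRPD3 at -0.22, and neither passed; without sgControl replicate 1, SNRPD2 stood at 0.77. The other 6 Sm genes ran from -0.37 for SNRPG to 0.39 for SNRPE, with SNRPD1 at -0.33, SNRPB at -0.07, SNRPN at -0.05 and SNRPF at -0.03.

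Of the LSM ring that binds the end of U6 snRNA, LSM6 rose and the other 5 tested did not pass. LSM6 read 52.1 and 46.9 CPM under sgControl against 59.0 and 87.3 CPM under sgMETTL13. The groups did not overlap, but 1 sgMETTL13 library was much higher than the other. The log2 fold change was 0.56 (SE 0.163, edgeR adjusted p = 0.0146), and without sgMETTL13 replicate 2 it was 0.25 and did not pass. LSM3, a ring subunit, read 35.6 and 42.4 CPM and then 50.4 and 51.9 CPM (0.40, SE 0.154). LSM7, its ring partner, read 797.0 and 1093 CPM and then 823.1 and 650.1 CPM (-0.36, SE 0.137, edgeR adjusted p = 0.0603), with groups that overlapped. It passed without sgControl replicate 1 (-0.57) and without sgMETTL13 replicate 1 (-0.55), and stood at -0.12 without sgControl replicate 2 and -0.20 without sgMETTL13 replicate 2. LSM4, LSM5 and LSM8 stood at -0.07, -0.08 and 0.26.

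Proteins of the branch point and the intron end included the smallest p of the list. SF3B6, also called p14, contacts the branch point within SF3B. Its footprints read 70.5 and 55.9 CPM under sgControl against 115.2 and 145.6 CPM under sgMETTL13, a log2 change of 1.04 (SE 0.150, n = 2 per arm, edgeR adjusted p = 2.07e-05). The lower sgMETTL13 library lay above the higher control by a wide margin. U2AF2, the large U2AF subunit that binds the polypyrimidine tract, read 597.1 and 722.8 CPM under sgControl against 405.7 and 374.3 CPM under sgMETTL13. Again the groups lay apart, with a log2 change of -0.76 (SE 0.125, edgeR adjusted p = 1.03e-04). U2AF1, its small partner that reads the AG at the intron end, did not pass, at -0.06 (SE 0.148).

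No other SF3 subunit passed. SF3B1, the large scaffold often mutated in myelodysplasia, stood at 0.31 (SE 0.147), SF3B2 at -0.31 (SE 0.118, edgeR adjusted p = 0.0619), SF3B3 at -0.12, SF3B4 at -0.08 and SF3B5 at 0.11. SF3A1, SF3A2 and SF3A3 stood at -0.26, -0.01 and -0.22. U2AF1L4, a paralog of U2AF1, stood at -0.02.

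Of 12 PRPF genes, PRPF39 and PRPF8 rose and PRPF6 fell. PRPF39, a U1 snRNP auxiliary protein, read 7.98 and 6.16 CPM under sgControl against 12.2 and 14.4 CPM under sgMETTL13 (log2 change 0.89, SE 0.232, edgeR adjusted p = 0.00702). PRPF8, the U5 protein at the catalytic centre of the spliceosome, read 57.6 and 53.7 CPM and then 84.4 and 68.1 CPM (log2 change 0.45, SE 0.148, edgeR adjusted p = 0.0283). PRPF6, which bridges the tri-snRNP, read 758.3 and 868.5 CPM and then 671.0 and 597.3 CPM (log2 change -0.36, SE 0.121, edgeR adjusted p = 0.0335). The groups of all 3 lay apart. PRPF8 was 0.28 and did not pass without sgMETTL13 replicate 1. With 1 footprint library left out, PRPF39 ran from 0.73 to 1.11 and PRPF6 from -0.45 to -0.26. Both also lost the call in some of these fits. The others ran from -0.23 for PRPF31 to 0.23 for PRPF38B, with PRPF19, a ubiquitin ligase of the spliceosome, at -0.04, PRPF4 at 0.19 and PRPF3 at 0.22. PRPF18 stood at 0.17, PRPF38A at -0.04 and PRPF40B at -0.09.

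Among the 6 RBM regulators RBM17, RBM25 and RBM10 fell and none rose, and all 6 had groups that did not overlap, 5 lower and 1 higher. Over all genes 12.0% fell and 64.1% had groups that did not overlap, and a class of 6 genes chosen by symbol is a description only. RBM17, also called SPF45, read 191.3 and 207.2 CPM under sgControl against 157.8 and 128.5 CPM under sgMETTL13 (log2 change -0.48, SE 0.134, edgeR adjusted p = 0.0115). RBM25, a U1-associated protein with a PWI domain, read 1005 and 1164 CPM and then 866.3 and 786.2 CPM (log2 change -0.39, SE 0.120, edgeR adjusted p = 0.0195). RBM10, on the X chromosome and mutated in some lung cancers, read 90.5 and 105.2 CPM and then 75.1 and 70.6 CPM (log2 change -0.42, SE 0.140, edgeR adjusted p = 0.0299). With 1 footprint library left out, RBM17 ran from -0.64 to -0.33, RBM25 from -0.49 to -0.29 and RBM10 from -0.53 to -0.32. Each lost the call in some of these fits. RBM39, the target of aryl sulfonamide degraders, was the higher one at 0.33 (SE 0.129, edgeR adjusted p = 0.0675). RBM5, a paralog of RBM10, stood at -0.21 and RBM22, a protein of the activated spliceosome, at -0.10.

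The 20 calls differed in how far they rested on 1 library. SF3B6, PTBP3, U2AF2, HNRNPK, HNRNPA3 and SRSF6 passed in each of the 4 fits that left out a footprint library. The other 14 lost the call without sgControl replicate 2, and 13 of them, all but PRPF8, also without sgMETTL13 replicate 2. PRPF6, PRPF8, RBM10, RBM25 and SRSF3 lost it without sgMETTL13 replicate 1 as well. In all 20 genes sgControl replicate 2 lay farther from sgMETTL13 than replicate 1 did, and in 18 of 20 sgMETTL13 replicate 2 lay farther from sgControl. Over all 2245 genes that passed these shares were 91.3% and 75.2%. Without sgControl replicate 2, 6 splicing genes passed (6.90%, with 7.49% of all genes). Without sgMETTL13 replicate 2, 7 passed (8.05%, with 6.44% of all genes), and without sgControl replicate 1, 33 passed (37.9%, with 27.4% of all genes). DESeq2 called 14 of the 20, leaving out HNRNPA3, HNRNPD, PRPF6, PRPF8, RBM10 and SNRPC. One model over all 8 libraries, which shares the larger RNA spread, called 0.

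**Figure D2:**
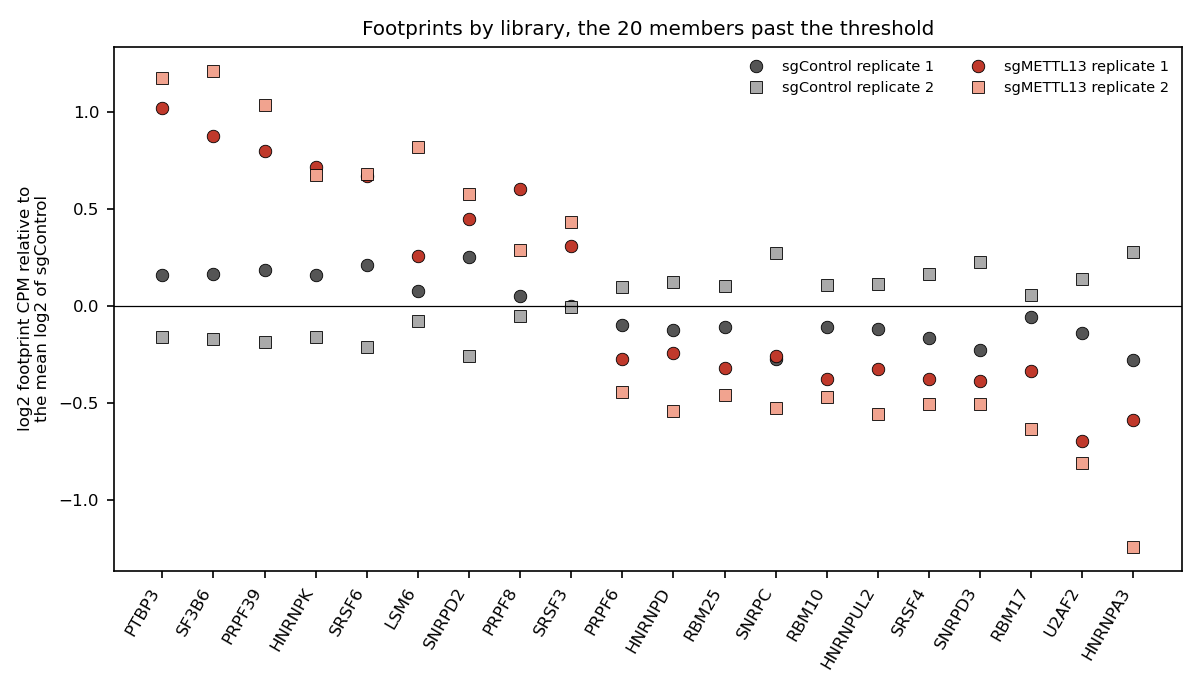
Footprint CPM of each library relative to the mean log2 of the 2 sgControl libraries (y axis, log2 units) for the 20 genes past the threshold, ordered by fold change; circles are replicate 1 and squares replicate 2. In all 20 genes the pale grey square (sgControl replicate 2) lies farther from the red points than the dark circle.

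In mRNA no splicing gene passed. Of 84 genes tested 0 were called by edgeR's quasi-likelihood test, and of all 12468 genes 0 passed too, a share of 0%. At an unadjusted p below 0.05 there was 1 splicing gene and 100 genes in all, and DESeq2 and limma voom also called 0. The groups did not overlap in 10 of 84 genes (11.9%), where all genes gave 12.0%. Median log2 fold change was 0.11 (0.04 over all genes), and 59 of the 84 were above 0, as were 6935 of all 12468. Without sgMETTL13 RNA replicate 1 the median of the 84 was -0.01 and 38 were above 0. The standard error had a median of 0.372 over these genes and 0.136 over those tested in footprints.

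The gene with p below 0.05 was PRPF31, a U4/U6 protein whose loss of 1 allele causes retinitis pigmentosa. Its mRNA read 17.9 and 2.60 CPM under sgControl against 1.88 and 3.34 CPM under sgMETTL13. The 2 controls differed 6.89-fold and the groups overlapped, so the log2 fold change of -1.98 carried an SE of 0.730 (edgeR unadjusted p = 0.0190, adjusted p = 0.9999). PRPF39 mRNA read 6.16 and 3.81 CPM and then 20.4 and 4.56 CPM (1.32, SE 0.634). PTBP2 mRNA read 2.61 and 1.98 CPM and then 8.83 and 2.04 CPM (1.24, SE 0.617). In both, 1 sgMETTL13 library was high and the other was near the controls.

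That pattern was common. The 2 sgMETTL13 RNA libraries differed by over 1.5-fold in 41 of 84 splicing genes, with replicate 1 the higher in 29 and replicate 2 in 12. The ratio of replicate 1 to replicate 2 ran from 0.275 for U2AF1 to 4.47 for PRPF39. It was 4.32 for PTBP2, 3.14 for PTBP3 and 3.08 for LSM5. In sgControl RNA 18 of 84 genes differed as much, and in footprints 6 did in sgControl and 4 in sgMETTL13.

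Which library was kept changed which mRNA values passed. Without sgMETTL13 RNA replicate 2, 17 splicing genes passed (20.2%, with 19.9% of all genes), 16 of them higher, including PRPF39 at 2.01, PTBP2 at 1.93, LSM5 at 1.39 and LSM8 at 1.27, and PRPF31 lower at -2.48. With all libraries these stood at 1.32, 1.24, 0.80, 0.74 and -1.98. Without sgMETTL13 RNA replicate 1, 2 passed (2.38%, with 0.214% of all genes), U2AF1 higher at 1.53 and PRPF31 lower at -1.58. PRPF31 was lower in both fits. Both keep sgControl RNA replicate 1, where PRPF31 read 17.9 CPM, against 2.60 CPM in sgControl RNA replicate 2. For the 13 SR and TRA2 genes 12 mRNA values were above 0 with all libraries and 6 without replicate 1 (medians 0.23 and -0.00). For the 6 LSM genes 6 and 3 were above 0 (medians 0.47 and -0.02). For the 8 Sm genes the counts were 8 with all libraries, 6 without replicate 1 and 5 without replicate 2, with medians of 0.34, 0.34 and 0.24.

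**Figure D3:**
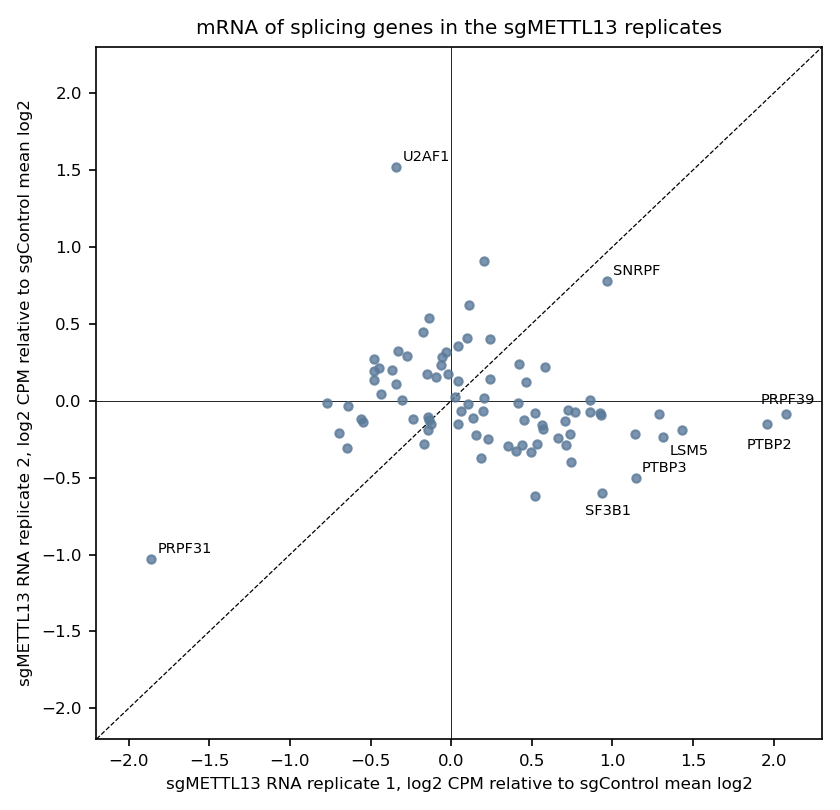
mRNA of splicing genes in sgMETTL13 replicate 1 (x axis) and replicate 2 (y axis), each as log2 CPM relative to the mean log2 of the sgControl libraries; the dashed line marks equal values. Points spread mostly along the x axis, with PRPF39 and PTBP2 at the right, U2AF1 at the top and PRPF31 low in both.

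Footprint and mRNA changes were set side by side for the 84 genes tested in both. Their log2 fold changes correlated weakly across genes (Pearson r 0.29, Spearman rho 0.29, n = 84), as a description of genes from the same libraries. Of the 9 genes that rose in footprints, the 8 with an mRNA value had one above 0, from 0.01 for HNRNPK to 1.32 for PRPF39. Among all 84 genes, 59 had an mRNA value above 0. Without sgMETTL13 RNA replicate 1 the mRNA value was -0.44 for PTBP3, -0.08 for PRPF39 and 0.01 for LSM6. Of the 11 that fell, 7 had an mRNA value above 0, and the range was -0.15 for RBM10 to 0.24 for RBM25. SF3B6 mRNA read 109.6 and 104.6 CPM under sgControl against 147.4 and 116.4 CPM under sgMETTL13 (0.30, SE 0.350), beside a footprint change of 1.04. U2AF2 mRNA read 380.2 and 391.5 CPM and then 307.1 and 482.9 CPM (0.03, SE 0.353), beside -0.76 in footprints. In U2AF2 the 2 sgMETTL13 libraries lay on opposite sides of the controls.

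Among the other genes called in each fit that left out a library, HNRNPK mRNA read 890.7 and 962.4 CPM and then 1084 and 779.5 CPM (0.01, SE 0.337). PTBP3 mRNA read 235.5 and 275.3 CPM and then 562.5 and 179.4 CPM (0.54, SE 0.470). HNRNPA3 mRNA read 393.5 and 214.1 CPM and then 474.8 and 237.5 CPM (0.23, SE 0.426). The groups overlapped in all 3. SRSF6 mRNA, at 202.1 and 182.6 CPM and then 284.0 and 172.0 CPM (0.25, SE 0.365), overlapped as well.

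**Figure D4:**
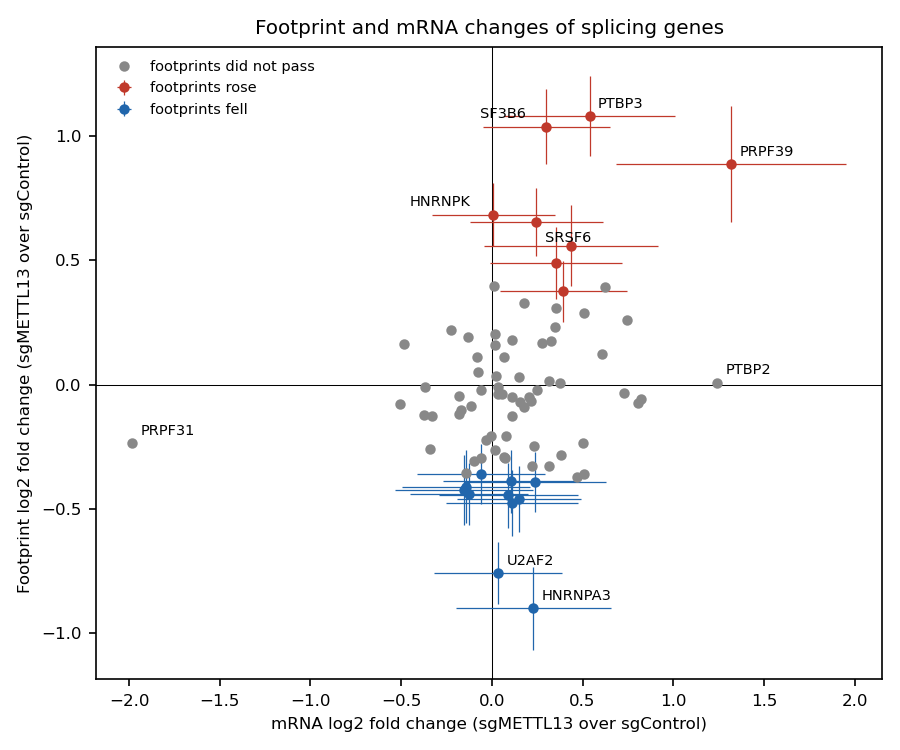
Footprint log2 fold change (y axis) against mRNA log2 fold change (x axis) for splicing genes tested in both, with 1 standard error for the genes that passed in footprints. Bars are longer along the mRNA axis, and U2AF2 and HNRNPA3 lie low while SF3B6 and PTBP3 lie high at mRNA values within 0.6 of 0.

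Translational efficiency, the change in footprints per mRNA, was tested as the interaction of guide and assay over all 8 libraries. Of 84 splicing genes 0 passed, as did 0 of 10446 genes (0%) by edgeR, and no splicing gene had an unadjusted p below 0.05 (347 genes in all did). DESeq2 called 0 splicing genes and 5 genes in all, and limma voom 0. The smallest p-values were those of SF3B6 (0.76 on the log2 scale, SE 0.354, edgeR unadjusted p = 0.0595, adjusted p = 0.999), HNRNPK (0.69, SE 0.328) and U2AF2 (-0.78, SE 0.373). The median was -0.20 (-0.11 over all genes). Without sgMETTL13 RNA replicate 1, 3 genes passed (3.57%, with 4.78% of all genes), PTBP3 at 1.52, U2AF1 at -1.59 and U2AF2 at -1.16. Without sgMETTL13 RNA replicate 2, 10 passed (11.9%, with 13.2% of all genes), all lower, and none of them was among those 3; they included PTBP2, HNRNPA3, LSM5, SRSF1, SNRPG, SRSF10, TRA2B, RBM25 and LSM8. PTBP3 was then at -0.02.

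Some of the 91 genes were read very unevenly by the assays. HNRNPH2, an X-linked hnRNP H paralog, had 3093 and 2078 footprint counts in sgControl and 4371 and 4028 in sgMETTL13, but 2, 0, 1 and 2 mRNA counts. RefSeq lists the readthrough gene RPL36A-HNRNPH2 over it. PRPF8 had 476 and 314 footprint counts in sgControl and 831 and 620 in sgMETTL13, but 8, 3, 4 and 2 mRNA counts, so its rise in footprints has no mRNA value beside it. LSM2 had at most 3 footprint counts and 0 mRNA counts in every library, although the other 6 LSM genes were measured; a count of 0 allows up to 3 counts, or 0.0634 to 0.144 CPM in RNA. HNRNPCL2, HNRNPCL3 and HNRNPCL4, copies of an HNRNPC-like gene, had at most 3 counts in any library. HNRNPCL1 had 8 to 14 footprint counts and at most 1 mRNA count, and its footprint log2 value of -0.69 carried an SE of 0.459.

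Footprint CPM per mRNA CPM in sgControl had a median of 1.73 over the 84 genes. It ran from 0.0195 for SRSF8 to 18.8 for SNRPN. This ratio also depends on how much of each transcript is coding. For SNRPN it rests on little mRNA, 39 and 12 counts or 1.05 and 0.578 CPM, with footprints at 13.3 and 17.3 CPM. RefSeq lists SNHG14 and SNURF over SNRPN. SRSF8, an intronless relative of SRSF2, had mRNA at 49.9 and 53.6 CPM but footprints at 0.484 and 1.54 CPM. Those footprints were only 4 and 9 counts, so the lowest ratio is imprecise too. HNRNPA1 was next lowest at 0.0275, with mRNA at 2040 and 1857 CPM and footprints at 41.3 and 65.8 CPM. RefSeq lists 75 numbered pseudogenes of HNRNPA1, the most of any of the 91; its footprint log2 change was -0.36 (SE 0.177, edgeR adjusted p = 0.153). HNRNPA1L2 and HNRNPA1L3, copies of HNRNPA1 listed as genes, had footprints at 8.35 and 13.3 CPM and at 9.19 and 16.1 CPM in sgControl and stood at 0.03 (SE 0.244) and 0.18 (SE 0.238), neither passing. In all, 41 of 91 genes have at least 1 numbered pseudogene, as do 9 of the 20 that passed. Another annotated gene overlaps 27 of the 91 and 7 of the 20 (HNRNPK, HNRNPUL2, PRPF39, RBM10, RBM25, SNRPD3 and SRSF4). The part of shared reads in these values was not tested.

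Genes of the same pathway outside the list were counted in footprints against the same background of 21.0%. Of 49 tested subunits of the spliceosome beyond those above, 6 rose and 6 fell, with a median of -0.00. SNRNP70, the U1 70K protein, read 640.3 and 812.2 CPM under sgControl against 438.1 and 441.1 CPM under sgMETTL13 (log2 change -0.72, SE 0.126, edgeR adjusted p = 1.93e-04). SNRNP27, a tri-snRNP protein, fell by 0.73 and SART1, which recruits the tri-snRNP, by 0.56 on the log2 scale. Among those that rose, DHX16, an RNA helicase of spliceosome activation, stood at 1.17, the cyclophilin PPIH at 0.63 and SMU1 at 0.57. DHX16 footprints were few, at 3.99 and 3.42 CPM under sgControl against 7.62 and 9.33 CPM under sgMETTL13. Its mRNA read 10.55 and 1.73 CPM and then 0.97 and 1.52 CPM.

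Of 11 SR protein kinases and RS-domain cofactors, CLK4 and SRPK1, kinases that phosphorylate SR proteins, rose by 0.72 and 0.40, and ACIN1, an exon junction-associated protein, stood at -0.52 and passed. Of 5 exon junction complex genes the paralogs MAGOHB and MAGOH rose, at 0.73 and 0.57, and none fell. MAGOHB read 44.6 and 46.5 CPM under sgControl against 66.0 and 85.2 CPM under sgMETTL13. MAGOH read 52.5 and 48.4 CPM and then 65.7 and 84.1 CPM. The part of reads shared by these paralogs was not tested. Of 11 genes of snRNP assembly, STRAP of the SMN complex rose by 0.56 (edgeR adjusted p = 0.0054). WDR77, which acts with the methyltransferase of Sm proteins, rose by 0.49 (edgeR adjusted p = 0.0422), and none fell. Of 23 other splicing regulators 3 rose and 2 fell. MBNL1, the muscleblind protein, rose by 0.80, while ESRP2, an epithelial splicing regulator, stood at -0.63 and passed, and its paralog ESRP1 rose by 0.50. None of these 5 lists had a gene that passed in mRNA or efficiency. Over all genes tested in footprints 8.94% rose and 12.0% fell. Whether the calls in these lists hold with a library left out was not examined.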

How the data were processed

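T3M4 cells with either guide were profiled by RNA-seq and ribosome profiling. The deposited table holds the authors' raw counts per gene symbol for 8 libraries. The build was hg38, and the submitters' processing notes name Bowtie 1.2.2, UMI-tools, HISAT2 2.0.4, cutadapt 1.18 and featureCounts without their roles; treatment of multi-mapping reads, molecular identifiers, annotation and strand is not given in the sources used here. Per the labels' protocols, RNA libraries were stranded poly(A) and footprints came from ribosomes caught on beads with a puromycin analog.

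Groups followed the labels. All genes were fitted with edgeR 4.0.16 (R 4.3.3), quasi-likelihood F test, TMM factors, default expression filter, within each assay, and p-values were adjusted by Benjamini-Hochberg over all genes tested. Translational efficiency was the interaction over all 8 libraries. Standard errors are the log2 fold change divided by the root of F. Alternatives were RLE factors, DESeq2 1.42.0, limma voom 3.58.1, no filter, a replicate block, one model of all libraries and leaving out each library. The fits were also run on simulated counts that held no shift of a single library. That run cannot speak to the replicate differences described above. Genes were named by rule: up to 4 per role class past the threshold in footprints, and further ones by smallest p; other values were added after seeing them. The members and lists were chosen with earlier results of these data known. Starts and gene positions come from RefSeq, GRCh38.p14, where all 91 symbols matched. Promoter windows of HNRNPA1, HNRNPA1L3, HNRNPCL3, LSM6, PRPF3, PRPF39, RBM39, SF3B3, SNRPD1, SRSF2 and TRA2A were not used here. Levels per coding length were not computed, so levels and ratios set beside those of other genes are not corrected for coding length. A few genes that entered the fits and counts are not reported here by name or drawn.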

Additional observations from a re-analysis of the deposited data

How the results depend on the processing

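Of the 20 splicing genes called in footprints with all libraries, RLE factors called all 20 and DESeq2 14. Testing without an expression filter kept the 20 and added 5, for 25, and limma voom kept 19, lost SNRPC and added 4, for 23, while DESeq2 called 1465 of all genes, fewer than the 2245 of edgeR. One model over all 8 libraries called 0 splicing genes and 0 genes in all in footprints. Leaving out 1 footprint library gave 6 to 33 splicing genes and 701 to 3018 genes in all. In mRNA, leaving out 1 library gave 0 to 17 splicing genes and 0 to 2509 genes in all. In translational efficiency it gave 0 to 10 splicing genes and 0 to 1384 genes in all, and DESeq2 called 5 genes. A left-out library leaves an arm with 1 sample that is assumed to vary like the other group. None of the 20 genes changed sign under these settings. With 2 libraries per group, changes near the SE of 0.372 in mRNA were not detectable, and far larger ones did not pass either. METTL13 mRNA, at 89.7 and 71.4 CPM under sgControl against 25.2 and 35.1 CPM under sgMETTL13, did not pass (edgeR adjusted p = 0.9999). PRPF31 mRNA, at a log2 fold change of -1.98, did not pass either. The lack of mRNA calls therefore does not limit mRNA changes to the size of that SE.

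The labels do not say whether equal replicate numbers mark a shared culture, and there are 2 pairs. Deviations of same-numbered footprint libraries correlated at -0.195 over all genes (-0.465 over the splicing genes), and in RNA at 0.41 (0.203). With the replicate block 13 splicing genes were called in footprints, without HNRNPD, PRPF6, PRPF8, RBM10, RBM25, SNRPC and SRSF3 (1729 genes in all), and 0 in mRNA and efficiency. With crossed numbers, a pairing chosen after seeing the data, 34 splicing genes and 3220 genes in all were called.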
